A study of Mus musculus with 12 samples.

Results

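Control cerebral cortex and control cultured neural progenitor cells (NPC) of mouse were set side by side, using the 6 control libraries among the 12 of the series and all genes of the deposited count table. Each system had 3 libraries. The cortex libraries came from brain tissue of C57BL/6 mice with the genotype Srsf10 flox/flox Nestin-Cre-, in which the floxed alleles are not exposed to the Cre recombinase that the Nestin promoter drives in the neural lineage; the age of these animals is not given in the labels. The NPC libraries came from primary suspension cultures of C57BL/6 cortex, genotype WT. The culture medium held bFGF and EGF (20 ng/μl each as the labels write it), heparin at 5 µg/mL and B27. The protocol attached to all NPC samples describes lentiviral infection at a multiplicity of 30, removal of virus at 24 h and RNA extraction at 72 h, and does not say which virus, if any, the controls received. Tissue against culture, floxed against WT genotype, growth factors, viral handling and any difference in counting all follow the same split of the 6 libraries and cannot be told apart. The labels do not say whether libraries of a group came from separate animals or cultures, so the p-values measure only the spread between these libraries, part of which may be technical.

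Radial glia are the neural stem cells of the developing cortex: they divide at the ventricle, make neurons directly or through intermediate progenitors, and later make astrocytes and oligodendrocytes. The tissue also holds cells of other origins, among them interneurons that migrate in from the ventral forebrain, microglia from the yolk sac, blood vessels, meninges and choroid plexus. Cells grown in suspension with bFGF and EGF are selected for division and for the progenitor state, and EGF acts through a receptor tyrosine kinase whose target genes include their own feedback inhibitors. In bulk tissue, fewer cells of a type and less RNA per cell cannot be told apart.

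The 6 libraries held between 26074094 and 36713205 counts each, and 15676 of 34102 genes had enough counts to be tested. Log2 CPM (counts scaled to a common library size with normalisation factors) correlated at 0.983 to 0.991 between libraries of a system and at 0.691 to 0.699 between systems. A gene was called where edgeR's quasi-likelihood test gave an adjusted p (Benjamini-Hochberg over all genes tested) under 0.05 and the difference was at least 2-fold. By this rule 3436 genes (21.9%) were higher in NPC and 4441 (28.3%) were higher in cortex, 50.2% in all. The adjusted p alone was under 0.05 at 38.4% of genes higher in NPC and at 40.5% higher in cortex, 78.9% in all. The libraries of the systems did not overlap at 12809 genes (81.7%), so single calls are common here and the counts of list members below are read against these shares. The median log2 difference over all genes tested was -0.03 (all log2 differences are NPC minus cortex, ± SE, n = 3 per system). Xist, the RNA of the inactive X chromosome, stood at 2067 CPM in cortex library 1 and at 2519.7 and 2240.0 CPM in NPC libraries 1 and 2, and the Y-linked Ddx3y at 85.6 to 103.6 CPM in the other 3, so both systems held libraries of both kinds. NPC library 3 held 27.1 CPM of Xist as well. Malat1, a nuclear RNA whose level depends on RNA preparation, had 501, 502 and 609 CPM in cortex and 2261, 2874 and 3048 in NPC, and its part in other differences was not tested. The choroid plexus gene Ttr stood at 2.34, 1185 and 19.05 CPM in the 3 cortex libraries, far highest in the second.

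The sources used here do not name the counting method, and some differences ran together along the chromosomes. Among 12221 genes with at least 5 CPM in either system, placed in chromosome order, 16 runs of at least 5 consecutive genes were each at least 4-fold higher in NPC. The opposite direction had 6 such runs, with 35 genes. The 16 runs held 181 genes, 164 of the 926 genes that were at least 8-fold higher in NPC, with a median of 0.602 CPM in cortex and 45.8 CPM in NPC. The longest lay on chromosome 17 from 33810519 to 35531015 (mm10) and held 52 genes, of which 46 were under 1 CPM in cortex. They included Prrc2a and Bag6, genes of the major histocompatibility region that most cells express: Prrc2a had 0 counts in every cortex library and 649, 600.2 and 617 CPM in NPC, and Bag6 had 0 counts and 317, 309 and 324 CPM. Another run on chromosome 16 (17759618 to 18970309) held 15 genes from Klhl22 to Hira. All 12 genes with the largest fitted differences in favour of NPC by the naming rule lay in such runs, and they are therefore given only here. In the 6 libraries that were not used to find them, those with reduced Srsf10, 180 of the 181 genes were also at least 4-fold lower in cortex than in NPC.

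**Figure D1:**
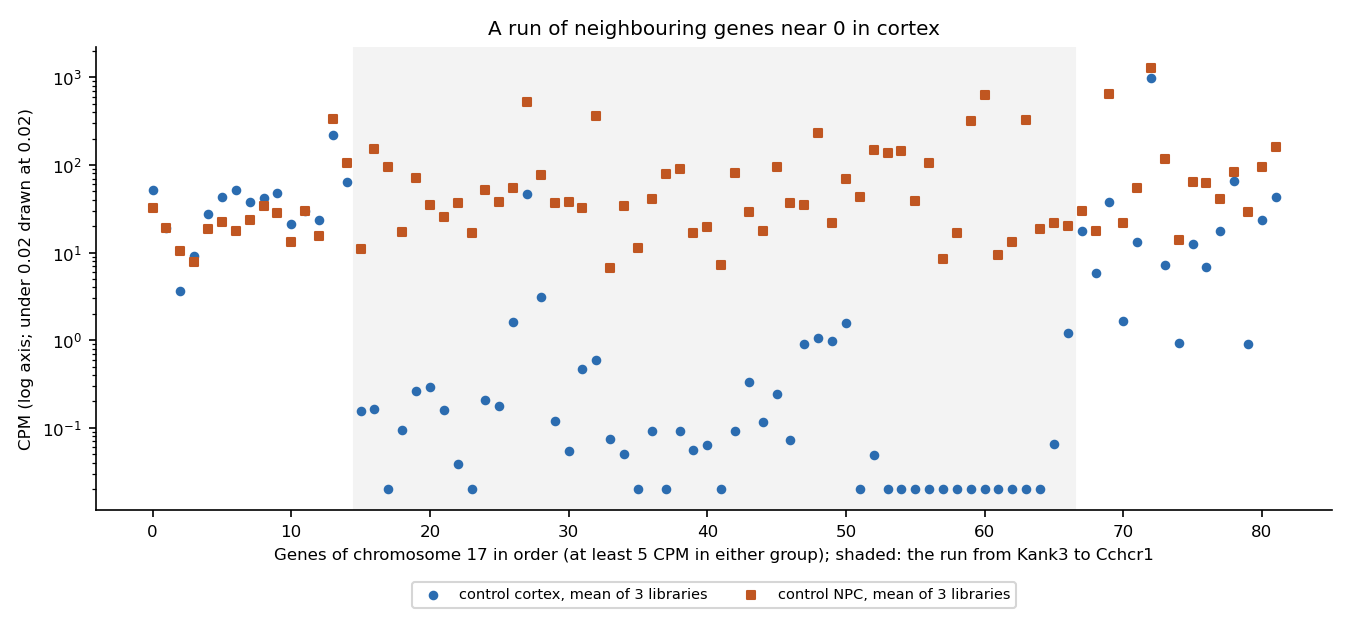
Mean CPM (log axis) of consecutive genes on and around a run of chromosome 17, for genes with at least 5 CPM in either system, in control cortex (circles) and control NPC (squares), with the 52 genes from Kank3 to Cchcr1 shaded. Within the shaded run 46 of the 52 genes are under 1 CPM in cortex, whereas genes on its left have similar levels in both systems.

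Genes higher in cortex were frequent among those whose exons lie almost wholly within those of another gene. Of the 99 tested genes with over 90% of their exon bases shared with another gene, 75.8% were called higher in cortex and 2.0% higher in NPC, with a median log2 difference of -7.32; of the 10119 genes with no shared exon bases, 28.5% and 22.1% were called. Pagr1a, Fam89b and Lime1, which overlap other genes in this way, had at most 0.0685 CPM in any NPC library. In cortex Pagr1a, a subunit of a histone methyltransferase complex, had 29.5, 23.8 and 24.2 CPM. Fam89b had 75.04, 56.6 and 64.2 CPM and Lime1, an adaptor of lymphocytes, had 39.6, 35.7 and 38.9 CPM there. Common reference genes were divided as well: Actb, Tbp, Ywhaz and Tfrc were not called, whereas Ppia, a peptidyl-prolyl isomerase with many pseudogene copies, had 7.85, 7.01 and 6.22 CPM in cortex and 611, 557 and 505 CPM in NPC, and Gapdh, the glycolytic enzyme, had 18.6, 22.9 and 19.6 CPM in cortex and 78.2, 67.3 and 66.7 in NPC. The polymerase subunit Polr2a was higher in NPC (1.41 ± 0.11), and the purine salvage enzyme Hprt was not called (-0.82 ± 0.10). Of the 15 reference genes tested, 8 were higher in NPC and 0 in cortex, with a median of 1.26. Without genes in runs or with shared sequence (at least 50% of exon bases or 10% of 50-base transcript windows) 5 of the 8 left in the test were higher in NPC, with the median again at 1.26. Here and below, the runs left out are those higher in NPC. Genes in runs higher in cortex stayed in unless they shared sequence. Ubiquitous genes outside the runs, such as the vesicle protein gene Vamp3 (0.273, 0.579 and 0.485 CPM in cortex, 169.9, 185 and 163 in NPC) and the importin Ipo8 (0.409, 0.6704 and 0.754 in cortex, 117, 114 and 113 in NPC), were also near 0 in cortex. What part counting had in any single difference was not tested. The gene lists below hold 461 tested genes, of which 3 (Dlg4, Cdc45 and Srsf1) lie in runs and 7 have neighbours (3 expressed genes on each side) with a median at least 4-fold higher in NPC. The endothelial marker Cldn5 and the microglial marker Aif1, which did not reach the test, also lie inside the interval of a run, as does the tested endothelial gene Erg, an ETS factor with means of 1.10 CPM in cortex and 0.329 CPM in NPC, too low to count in the run.

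**Figure D2:**
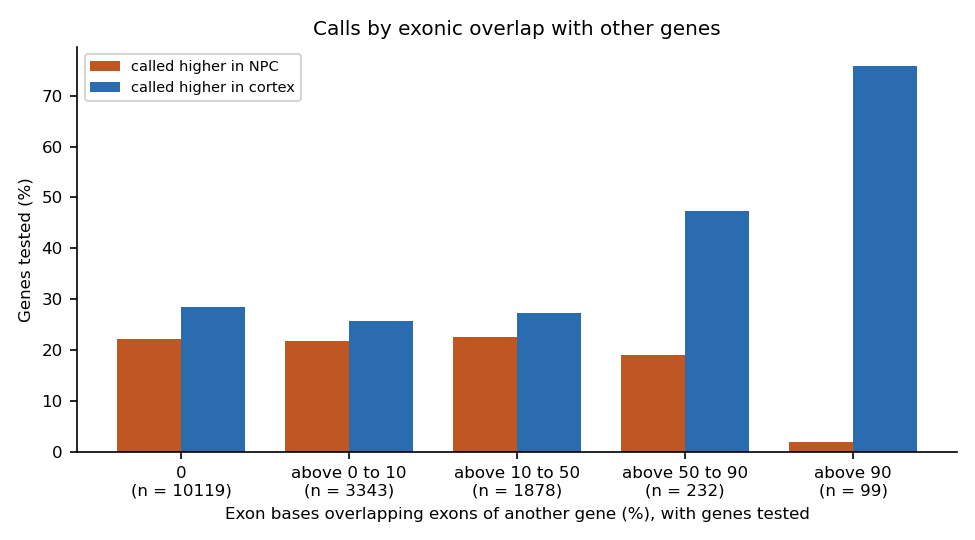
Share of tested genes called higher in NPC (orange) or in cortex (blue), by the share of a gene's exon bases that overlap exons of another gene. The shares called in each direction stay at 21.7% to 22.6% and 25.8% to 28.5% up to 50% overlap, and reach 75.8% higher in cortex above 90%.

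Neuronal genes were higher in tissue, Tubb3 by 179-fold. Of 18 pan-neuronal genes, all tested, 15 were called higher in cortex and 0 in NPC, with a median log2 difference of -5.27, against 28.3% and 21.9% of all genes tested. Tubb3, the neuronal beta-tubulin, had 2565, 1935 and 2283 CPM in the cortex libraries and 11.2, 12.8 and 13.8 CPM in the NPC libraries. Dcx, a microtubule-associated protein of migrating neurons, had 2244, 3009 and 2603 CPM in cortex and 13.6, 7.95 and 7.57 in NPC. Stmn2, a growth-cone protein, had 1809.6, 1606 and 1673 CPM in cortex and 0.502, 0.115 and 0.274 in NPC. Every cortex library lay above every NPC library for these 3 genes, with log2 differences of -7.49 ± 0.16, -8.07 ± 0.27 and -12.45 ± 0.26 (adjusted p = 5.89e-10, 5.96e-09 and 5.03e-10). The cell adhesion gene Cntn2 (-9.47 ± 0.16) and the transcription factor Myt1l (-7.55 ± 0.23) were the other members with the largest differences. Map2 did not follow: this dendritic microtubule protein had 1373, 1726 and 1561 CPM in cortex and 989, 1101 and 1073 CPM in NPC, a difference of -0.56 ± 0.10 that was under 2-fold. Gap43, a growth-associated protein, also stayed under 2-fold, at -0.98 ± 0.14. For both genes the systems did not overlap either, and the adjusted p was under the threshold.

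**Figure D3:**
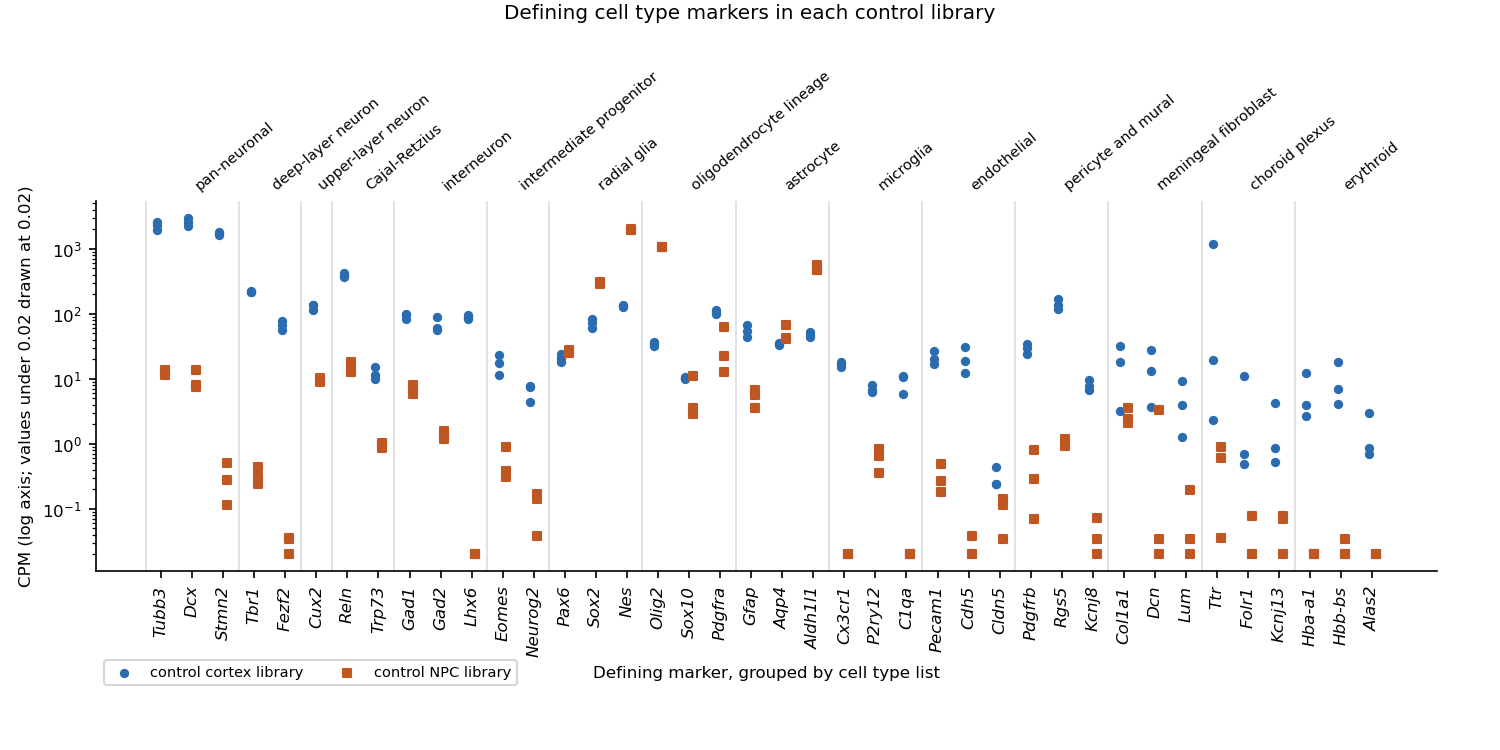
CPM (log axis) of defining markers of the cell type lists in the 3 control cortex libraries (blue circles) and the 3 control NPC libraries (orange squares). Neuronal, microglial and vascular markers sit below the cortex libraries in NPC, Nes, Olig2 and Aldh1l1 sit above them, and Ttr is spread from 2.34 to 1184.7 CPM within cortex.

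Markers of cortical layers, which separate the projection neurons by birth date and target, were mostly higher in tissue. Of 10 deep-layer genes, 7 were higher in cortex and 1 in NPC (median -4.77). Tbr1, the factor of layer 6 neurons, had 226, 213 and 219 CPM in cortex and 0.431, 0.306 and 0.2398 in NPC (-9.38 ± 0.14). Fezf2, which specifies subcerebral projection neurons, had 76.5, 56.4 and 66.4 CPM in cortex and 2 counts over all NPC libraries. Crym, a thyroid hormone binding protein, and Ldb2, a LIM cofactor, were lower in NPC, with differences of -9.74 ± 0.38 and -5.09 ± 0.22. Sox5 went the other way: this factor of deep-layer neurons, also used in glial lineages, had 2.02, 5.64 and 2.56 CPM in cortex and 71.8, 56.3 and 51.2 in NPC (4.15 ± 0.34, adjusted p = 2.36e-06), with no overlap. Of 8 upper-layer genes, 6 were higher in cortex and 1 in NPC (median -3.74). Cux2, a homeobox factor, had 113, 135 and 137 CPM in cortex and 10.4, 9.14 and 8.74 in NPC (-3.77 ± 0.12). Unc5d, a netrin receptor, and Inhba, an activin subunit, differed by -4.000 ± 0.16 and -6.36 ± 0.45. The exception was Rorb, a nuclear receptor of layer 4, at 36.9, 53.3 and 41.3 CPM in cortex and 95.9, 89.5 and 102 in NPC (1.13 ± 0.13).

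Cajal-Retzius and interneuron genes gave a similar account. Of 9 Cajal-Retzius genes, 7 were higher in cortex and 1 in NPC (median -3.64). Reln, the secreted protein that orders the layers, had 381, 415 and 365 CPM in cortex and 12.5, 12.96 and 17.8 in NPC (-4.74 ± 0.15). Trp73, a p53 relative made by these cells, had 11.2, 14.9 and 9.92 CPM in cortex and 1.04, 0.994 and 0.856 in NPC (-3.64 ± 0.23). The calcium-binding protein gene Calb2 differed by -6.82 ± 0.38. Nhlh2, a neuronal helix-loop-helix factor, had 0 counts in every NPC library against 15.6, 21.8 and 9.81 CPM in cortex. That is at least 145-fold lower when NPC is set at 3 counts per library. Nhlh2 reached the test through the cortex libraries, so its direction follows from the filter. Ebf3, a factor of the same family as Ebf2, was higher in NPC (4.36, 5.15 and 3.77 CPM in cortex against 20.1, 24.5 and 26.8), whereas Ebf2 was not called (1.31 ± 0.68). Of 15 interneuron genes, 14 were higher in cortex and 0 in NPC (median -5.77). Among them 3 (Lhx6, Sst and Slc32a1) had 0 counts in every NPC library and reached the test through the cortex libraries. Their direction follows from the filter, and the count rests in part on them. With these genes at 3 counts per library the median was again -5.77. Lhx6, the factor of interneurons from the medial ganglionic eminence, had 88.8, 82.6 and 94.9 CPM in cortex and 0 counts in all NPC libraries, at least 819-fold lower. Sst, the neuropeptide somatostatin, had 53.6, 44.9 and 67.1 CPM in cortex and 0 counts in NPC, at least 509-fold lower, and the vesicular GABA transporter Slc32a1 was at least 252-fold lower. Npy, another neuropeptide, had 67.4, 60.6 and 52.03 CPM in cortex and 1 count over all NPC libraries. Gad1, an enzyme that makes GABA, had 81.7, 98.7 and 94.4 CPM in cortex and 5.78, 7.38 and 7.98 in NPC. Its relative Gad2 had 60.5, 89.3 and 56.8 CPM in cortex and 1.36, 1.57 and 1.199 in NPC. Maf was the member not called, at 47.1, 46.96 and 51.3 CPM in cortex and 37.6, 47.7 and 42.00 in NPC.

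Among 18 synapse and receptor genes, 15 were higher in cortex and 1 in NPC (median -2.89). Slc17a6 and Slc17a7, the vesicular glutamate transporters, had 1 and 10 counts over all NPC libraries. In cortex Slc17a6 had 42.2, 53.2 and 48.5 CPM and Slc17a7 had 88.9, 73.5 and 92.4 CPM. The NMDA receptor subunit Grin1 was lower in NPC as well (-4.83 ± 0.19). The AMPA receptor subunits Gria2, Gria3 and Gria4 were less separated, whereas Gria1 was among the members called higher in cortex. Gria2 had 709, 964 and 784 CPM in cortex and 378, 309 and 351 in NPC (-1.24 ± 0.13), and Gria4 (-0.10 ± 0.15, adjusted p = 0.547) and Gria3 (0.59 ± 0.12) were not called. Dlg4, the postsynaptic scaffold PSD-95, had 8.396, 10.6 and 9.65 CPM in cortex and 148, 154 and 151 in NPC (3.98 ± 0.10). It lies in a run on chromosome 11 (69878261 to 70440828), and its 6 nearest expressed neighbours had a median log2 difference of 5.45.

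Genes of intermediate progenitors and of neurogenesis were also mostly higher in tissue: 8 of 11 tested against 2 higher in NPC (median -3.76). Eomes, the factor that marks intermediate progenitors, had 17.5, 22.8 and 11.3 CPM in cortex and 0.897, 0.306 and 0.377 in NPC (-5.02 ± 0.40). Neurog2, the proneural factor of cortical progenitors, had 7.85, 7.497 and 4.34 CPM in cortex and 0.144, 0.0382 and 0.171 in NPC (-5.73 ± 0.45). Neurod2 and Neurod6, helix-loop-helix factors of young projection neurons, had 1 and 6 counts over all NPC libraries. In cortex Neurod2 had 336, 323 and 282 CPM and Neurod6 had 685, 656 and 649.8 CPM. None of these 4 factors overlapped between systems. Btg2, an antiproliferative gene used to mark neurogenic divisions and also a p53 target, had 13.1, 16.2 and 9.97 CPM in cortex and 108, 90.9 and 93.4 in NPC (2.90 ± 0.17). Gadd45g, a stress gene downstream of proneural factors, was likewise higher in NPC (2.31 ± 0.19). Hes6, a proneural-associated repressor, had 71.4, 55.3 and 58.5 CPM in cortex and 62.4, 60.9 and 63.2 in NPC, a difference of 0.01 ± 0.11 with a 95% interval from -0.23 to 0.25.

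Radial glial genes marked the cultures. Of 16 tested, 12 were higher in NPC and 2 in cortex (median 2.09), and their summed level was 16600.7 to 18235.9 CPM in NPC and 2599.3 to 2909.1 CPM in cortex. Nes, the intermediate filament of neural stem cells, had 129, 138 and 131 CPM in cortex and 1908, 1926 and 2005 in NPC (3.88 ± 0.09, adjusted p = 6.76e-10). Sox2, which maintains the stem cell state, had 72.6, 84.1 and 59.5 CPM in cortex and 303, 288 and 297 in NPC (2.04 ± 0.12). Vim, another filament gene, had 169, 161 and 128 CPM in cortex and 3647, 3521 and 3772 in NPC (4.58 ± 0.13). The endothelin receptor Ednrb had 78.6, 91.6 and 75.6 CPM in cortex and 1093, 1211 and 1507 in NPC (3.95 ± 0.14). None of these 4 genes overlapped between systems. Pax6, the factor of dorsal radial glia, was the defining marker that did not separate the systems by 2-fold, with 20.6, 24.3 and 17.8 CPM in cortex and 27.9, 25.5 and 25.1 in NPC (0.32 ± 0.13, adjusted p = 0.0473). Prom1, a membrane protein of the apical surface, was lower in NPC (18.7, 20.1 and 18.4 against 9.797, 4.78 and 4.52 CPM, -1.58 ± 0.27).

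The Notch pathway keeps progenitors from differentiating through Hes and Hey repressors, and its members were divided: 8 of 14 higher in NPC, 5 higher in cortex (median 1.47). The receptors Notch1 (2.67 ± 0.10), Notch2 (1.31 ± 0.13) and Notch3 (25.9, 23.1 and 25.9 against 183, 173 and 219.7 CPM, 2.94 ± 0.11) were all higher in NPC. So was Lfng, the glycosyltransferase that tunes them, at 19.8, 17.98 and 14.7 CPM in cortex and 287, 249 and 293 in NPC (3.98 ± 0.13). The ligands Dll1 (1.65 ± 0.09) and Jag1 (2.92 ± 0.16) were higher in NPC, whereas Jag2 had 56.6, 53.5 and 59.8 CPM in cortex and 7.61, 6.12 and 6.03 in NPC (-3.10 ± 0.13). The target repressors were split as well. Hes1 had 7.91, 4.21 and 5.17 CPM in cortex and 42.9, 38.8 and 25.4 in NPC (2.63 ± 0.27), and Hey1 was higher in NPC (1.63 ± 0.14). Hes5 had 18.1, 14.9 and 16.1 CPM in cortex and 6.17, 3.29 and 2.57 in NPC (-2.03 ± 0.29), and Heyl differed by -4.86 ± 0.42.

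Oligodendrocyte lineage genes were divided. Of 14 tested, 8 were higher in NPC and 4 in cortex. The median was 1.48, and 0.35 with no count filter and 0.32 with DESeq2. Olig2, a factor of ventral progenitors and of oligodendrocytes, had 36.96, 33.7 and 31.4 CPM in cortex and 1055, 1078 and 1071 in NPC (4.97 ± 0.10, adjusted p = 4.52e-10). Olig1 (4.43 ± 0.14) and Nkx2-2 (3.83 ± 0.32), factors of the same lineage, were also higher in NPC, as were Bcas1 (2.93 ± 0.25), Cnp (2.67 ± 0.15), a myelin enzyme, and the proteoglycan Cspg4 (2.26 ± 0.11). Pdgfra, the receptor that defines oligodendrocyte precursors, went the other way, with 98.1, 104 and 114 CPM in cortex and 62.4, 22.02 and 12.7 in NPC (-1.71 ± 0.46). Sox10, which acts after Olig2 in this lineage, had 10.7, 10.1 and 9.94 CPM in cortex and 10.9, 3.48 and 2.84 in NPC (-0.84 ± 0.43, adjusted p = 0.103). NPC library 1 was the highest of the NPC libraries for both, and without it the difference in Sox10 was -1.69 and passed the test. Mbp, a myelin protein, had 40.3, 38.6 and 43.03 CPM in cortex and 1.79, 0.612 and 0.411 in NPC (-5.43 ± 0.37), and the myelin gene Mag was under 1 CPM in every library.

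Astrocyte genes were less separated: 8 of 18 tested were higher in NPC, 2 in cortex and 8 were not called (median 0.69). Gfap, the filament of mature and reactive astrocytes, had 67.98, 53.4 and 44.1 CPM in cortex and 6.78, 3.59 and 5.52 in NPC (-3.38 ± 0.24, adjusted p = 8.83e-07). Aldh1l1, a folate enzyme of astrocytes and radial glia, had 47.6, 43.5 and 51.3 CPM in cortex and 555, 467 and 465 in NPC (3.38 ± 0.10). Aqp4, the water channel of astrocyte endfeet, was not called at 35.8, 32.5 and 34.2 CPM in cortex and 42.4, 66.4 and 40.2 in NPC (0.54 ± 0.18). Of the 3 defining markers, 1 was therefore lower in culture, 1 was higher and 1 was not called. The hyaluronan receptor Cd44 (3.51 ± 0.10) and the calcium-binding protein S100b (3.21 ± 0.46) were higher in NPC, and Clu, a secreted chaperone, was lower (-1.09 ± 0.17).

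Genes of non-neural cells were mostly higher in tissue. Of 15 microglial genes tested, 14 were higher in cortex and 0 in NPC, with a median of -8.74, or -6.46 with genes at 0 counts set at 3 counts per library (-9.39 without NPC library 3, in fitted values). Of these 15 genes, 7 had 0 counts in every NPC library and reached the test through the cortex libraries. Their direction follows from the filter, and the count and median rest in part on them. Cx3cr1, the fractalkine receptor, had 16.95, 15.02 and 17.8 CPM in cortex and 0 counts in all NPC libraries, at least 153-fold lower. The complement genes C1qa and C1qb were at least 83-fold and 88-fold lower and Fcrls at least 109-fold lower, each with 0 counts in NPC. P2ry12, the purinergic receptor of resting microglia, had 6.21, 6.77 and 7.89 CPM in cortex and 0.359, 0.841 and 0.651 in NPC (-3.49 ± 0.31).

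Of 17 endothelial genes tested, 16 were higher in cortex and 0 in NPC (median -4.70). In this list 1 gene had 0 counts in every NPC library, so its direction follows from the filter. Cdh5, the junctional cadherin of vessels, had 18.6, 12.1 and 30.6 CPM in cortex and 1 count over all NPC libraries. Pecam1, an adhesion molecule, had 20.1, 16.9 and 26.3 CPM in cortex and 0.179, 0.268 and 0.4796 in NPC (-6.06 ± 0.32). Tie1, a receptor kinase of vessels, had 14.7, 12.9 and 24.1 CPM in cortex and 1 count over all NPC libraries, and Abcb1a, an efflux transporter of the blood-brain barrier, differed by -5.89 ± 0.35. Cldn5, the tight-junction gene, was at 0.242 to 0.436 CPM even in cortex. Its position at chromosome 16, 18776847 to 18778262, is inside the run described above, where 12 of 15 genes were under 1 CPM in cortex. Of 13 pericyte and mural genes, 10 were higher in cortex and 2 in NPC (median -4.28, and -6.00 without NPC library 2). Rgs5, a regulator of G-protein signalling, had 138, 116 and 166 CPM in cortex and 1.18, 1.11 and 0.925 in NPC (-7.02 ± 0.18). The growth factor receptor Pdgfrb (-6.26 ± 0.44) and the channel subunit Abcc9 (-7.47 ± 0.44) were lower in NPC, and the potassium channel Kcnj8 had 9.46, 6.796 and 7.62 CPM in cortex and 3 counts over all NPC libraries. Notch3, which radial glia also express, and the smooth muscle actin Acta2 (2.04, 0.884 and 4.74 against 13.6, 11.97 and 9.97 CPM) were the members higher in NPC.

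Meningeal, choroid plexus and blood genes differed between the cortex libraries as well as between systems. Of 13 meningeal genes tested, 10 were higher in cortex and 2 in NPC (median -3.77). Without cortex library 2 the median was -4.92, without cortex library 3 it was -2.96, and without NPC library 2 it was -6.12. The collagen Col1a1 had 18.1, 3.17 and 31.4 CPM in cortex and 2.44, 3.52 and 2.06 in NPC (-2.72 ± 0.67), so that cortex library 2 overlapped the NPC range. The matrix proteoglycan Dcn had 13.3, 3.63 and 27.3 CPM in cortex and 0, 3.29 and 0.0343 in NPC (-3.77 ± 1.16), and without cortex library 3 it no longer passed (-2.96). Lum, a related proteoglycan, had 3.93, 1.25 and 9.08 CPM in cortex and 0, 0.191 and 0.0343 in NPC. Col1a2 (-8.22 ± 0.97) and the chemokine Cxcl12 (-6.28 ± 0.42) were lower in NPC as well, as were the retinoic acid enzyme Aldh1a2 (-5.83 ± 1.21) and the sulfate transporter Slc13a4 (-5.87 ± 0.41). Foxc1, a factor of the meninges, and Twist1, a mesenchymal factor, were higher in NPC (1.30 ± 0.30 and 2.14 ± 0.68), although Twist1 was under 3 CPM and overlapped. The collagen Col3a1 (-2.60 ± 1.24) was not called. Of 8 choroid plexus genes tested, 7 were higher in cortex and 1 in NPC (median -4.14). Without cortex library 2, 5 were higher in cortex and the median was -2.35, and with sex as a covariate 5 were. The list had a summed level of 40.6, 1313.9 and 68.3 CPM in cortex libraries 1 to 3. The folate receptor Folr1 had 0.491, 10.9 and 0.701 CPM in the cortex libraries and the potassium channel Kcnj13 had 0.518, 4.297 and 0.862 CPM. The channel genes Clic6 (0.545, 20.1 and 1.05 CPM) and Aqp1 (2.48, 11.8 and 4.28 CPM) were likewise highest in cortex library 2. The member higher in NPC was Otx2, a factor of choroid plexus and of midbrain, at 0.191, 6.58 and 0.296 CPM in cortex and 10.4, 22.9 and 10.2 in NPC (2.64 ± 0.98). Erythroid genes were low in tissue and nearly absent in culture: the haemoglobin gene Hbb-bs had 18.3, 4.14 and 6.98 CPM in cortex and 1 count in NPC, and Hba-a1 had 12.2, 2.65 and 3.96 CPM and 0 counts. Haemoglobin genes have near-identical copies, so the division of reads among them is uncertain. Of 6 erythroid genes tested among 10 listed, 5 were higher in cortex and 1 in NPC, and 4 of the 6 had 0 counts in every library of a system. These 4 reached the test through the other system, so their direction follows from the filter and the count and median of the list are no result. The fitted median was -8.93, or -4.67 with those genes at 3 counts per library.

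Cell cycle genes were higher in culture. All 24 genes of G2 and mitosis were called higher in NPC (median 2.89), and of 25 S phase genes 21 were higher in NPC and 0 in cortex (median 2.13). The mitosis list summed to 360.2 to 419.7 CPM in cortex and 2200.4 to 3798.0 CPM in NPC. Ccnb1, the cyclin of mitotic entry, had 9.57, 9.78 and 7.14 CPM in cortex and 209, 152 and 121 in NPC (4.19 ± 0.22, adjusted p = 1.02e-07). The mitotic kinase Plk1 (3.91 ± 0.22), the checkpoint target Cdc20 (3.63 ± 0.21) and the ubiquitin carrier Ube2c (3.61 ± 0.21) followed in size. Mki67, the proliferation antigen, had 50.97, 72.3 and 58.2 CPM in cortex and 606, 420.5 and 330.1 in NPC (2.90 ± 0.22), though its expressed neighbours had a median of 2.82. In the S phase list Ccne1, the cyclin of the G1 to S transition (3.25 ± 0.17), Uhrf1, which reads hemimethylated DNA (2.98 ± 0.19), and the helicase subunit Mcm3 (2.91 ± 0.20) had the largest differences apart from Cdc45 (7.64 ± 0.48), which lies in the chromosome 16 run. The S phase genes not called were Gins1, Prim1, Slbp and E2f1, at 0.44 ± 0.23, 0.19 ± 0.16, 0.82 ± 0.11 and 0.48 ± 0.17.

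The NPC libraries were not alike in cell cycle genes. NPC library 1 was the highest and NPC library 3 the lowest for 24 of 24 called mitosis genes and for 21 of 21 called S phase genes. For 12 called p53 targets, 11 were highest in NPC library 3 and 11 were lowest in NPC library 1. All NPC libraries remained above all cortex libraries for the 24 mitosis genes.

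**Figure D4:**
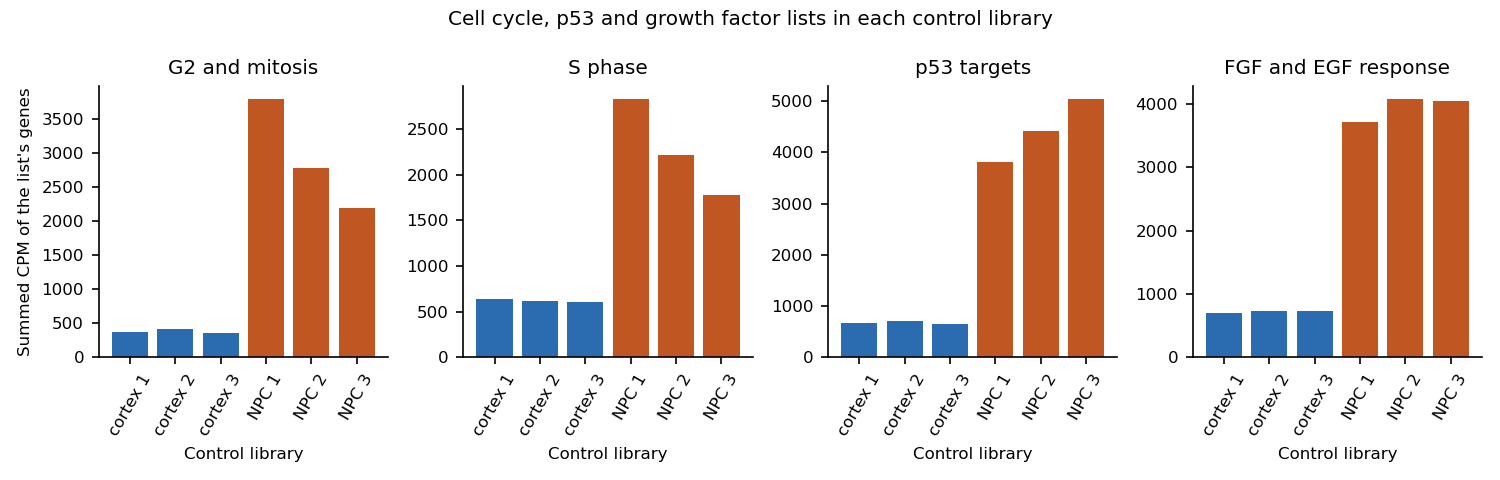
Summed CPM of the genes of 4 lists in each of the 6 control libraries (blue cortex, orange NPC), each panel with its own axis from 0. Mitosis genes sum to 3798.0 CPM in NPC 1 and 2200.4 in NPC 3, p53 targets to 3816.2 and 5043.1, and all NPC bars stand above the cortex bars.

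Genes of G2 and mitosis are known to share promoter elements, a CCAAT box bound by NF-Y and the cell cycle homology region bound by the DREAM and MuvB complexes, and members of this list moved together, so 3 of their promoters are shown. They are the 250 bases before the transcription start of Cdk1, Ccnb2 and Top2a from RefSeq (GRCm38.p6), each on the minus strand and written 5′ to 3′ along the gene, chosen after their values were seen. Capitals mark CCAAT and TTTGAA on either strand (as ATTGG and TTCAAA on the other). Cdk1, the mitotic kinase, is at chr10:69352913-69353162, Ccnb2, its cyclin, at chr9:70421555-70421804, and Top2a, the topoisomerase that untangles chromosomes, at chr11:99024190-99024439.
Cdk1: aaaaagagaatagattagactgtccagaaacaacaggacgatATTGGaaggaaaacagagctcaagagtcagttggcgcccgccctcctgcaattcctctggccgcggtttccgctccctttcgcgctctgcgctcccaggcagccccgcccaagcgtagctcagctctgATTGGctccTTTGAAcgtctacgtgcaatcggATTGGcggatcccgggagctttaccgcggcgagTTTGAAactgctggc
Ccnb2: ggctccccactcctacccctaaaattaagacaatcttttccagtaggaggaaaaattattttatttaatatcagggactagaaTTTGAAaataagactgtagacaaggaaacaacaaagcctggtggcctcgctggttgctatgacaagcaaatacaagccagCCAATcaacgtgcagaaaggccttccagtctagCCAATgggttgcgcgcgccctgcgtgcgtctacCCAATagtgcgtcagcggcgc
Top2a: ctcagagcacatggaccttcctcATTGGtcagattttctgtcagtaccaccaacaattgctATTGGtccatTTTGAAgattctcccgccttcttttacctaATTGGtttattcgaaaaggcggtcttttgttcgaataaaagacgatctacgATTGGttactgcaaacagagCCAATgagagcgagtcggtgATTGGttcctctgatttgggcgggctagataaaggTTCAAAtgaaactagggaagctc
The CCAAT letters stand 3 times in the Cdk1 and Ccnb2 windows and 6 times in that of Top2a. TTTGAA stands 2 times for Cdk1, 1 time for Ccnb2 and 2 times for Top2a. RefSeq promoters were matched for 20 of the 24 mitosis genes (21 promoters). Of these, 81.0% held CCAAT and 38.1% held TTTGAA, against 33.8% and 16% of all 32851 promoters of the same length. For the S phase list, with 23 promoters of 21 genes, the shares were 65.2% and 8.7%. For the pan-neuronal list, with 19 promoters, they were 52.6% and 15.8%, so CCAAT was above its share of all promoters there as well. Only 10 of the 18 pan-neuronal genes had a promoter, so some genes count more than once. No difference between lists in these shares was tested. Such matches describe letters in a window and show no binding. Cdk1 had 15.05, 13.5 and 12.02 CPM in cortex and 146, 119 and 89.9 in NPC (3.13 ± 0.18), so that every NPC library was higher. Ccnb2 had 6.02, 5.58 and 4.85 CPM in cortex and 31.6, 18.9 and 14.1 in NPC (1.97 ± 0.27). Top2a had 62.7, 63.8 and 55.2 CPM in cortex and 531, 392 and 313 in NPC (2.77 ± 0.18).

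Regulators of G1, cyclins and inhibitors alike, were mostly higher in culture: 8 of 12 were higher in NPC and 1 in cortex (median 2.38). Ccnd1, the D-type cyclin that growth factors induce, had 45.7, 40.04 and 39.8 CPM in cortex and 3043, 3141 and 3441 in NPC (6.26 ± 0.12, adjusted p = 3.37e-10), with 21.6% of its 50-base transcript windows shared with other genes. The inhibitor Cdkn1a (p21) had 6.41, 6.95 and 7.33 CPM in cortex and 687, 829 and 949.7 in NPC (6.90 ± 0.15, adjusted p = 6.76e-10). Its position on chromosome 17 (29090976 to 29100727) follows the end of a run at 29007995, while its own neighbours had a median of 0.97. Cdkn2a and Cdkn2b, inhibitors known to accumulate as cells are passaged, had at most 0.549 CPM in any cortex library. In NPC Cdkn2a had 21.9, 26.3 and 40.3 CPM and Cdkn2b had 20.7, 22.9 and 31.2 CPM. Cdkn1c (p57), an inhibitor of progenitors that leave the cycle, was lower in NPC at 2.98, 2.22 and 1.88 CPM against 45.9, 37.7 and 45.5 in cortex (-4.19 ± 0.18). Cdkn2d, at -0.43 ± 0.17, was under 2-fold.

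Regional identity genes were divided. Of 14 genes of the dorsal telencephalon, 10 were higher in cortex and 0 in NPC (median -2.40). Emx1, the marker of the cortical field, had 25.9, 24.3 and 21.8 CPM in cortex and 0 counts in all NPC libraries, at least 222-fold lower. Emx1 reached the test through the cortex libraries, so its direction follows from the filter. Bhlhe22 (-9.10 ± 0.17), an area factor of projection neurons, and Lhx9 (-6.23 ± 0.80) were lower too. Emx2 (21.8, 25.96 and 11.1 CPM in cortex, 41.2, 22.6 and 35.8 in NPC) and Dmrta2 (0.64 ± 0.26), which pattern cortical progenitors, were not called. Genes of the ventral telencephalon were divided, with 6 of 14 higher in NPC and 7 in cortex (median -0.51). The median was -0.03 without cortex library 2, -1.10 with no count filter and -1.12 with DESeq2. Besides Olig1 and Olig2, Six3 (1.25, 4.24 and 0.781 against 43.1, 48.1 and 55.1 CPM, 4.57 ± 0.48) and the homeobox factor Gsx1 (3.93 ± 0.43) were higher in NPC, and Nkx6-2, under 2 CPM throughout, differed by 5.40 ± 0.61. Dlx1 (123, 123 and 103 against 3.16, 1.64 and 1.58 CPM) and the LIM factor Isl1 (4.39, 10.7 and 1.43 CPM in cortex, 1 count over NPC) were higher in cortex. Of 24 midbrain, hindbrain and spinal cord genes, 5 had enough counts to be tested, which they reached through the NPC libraries, so their direction follows from the filter and their count and median are no result. The other 19 were not tested. En2, a factor of the midbrain and cerebellum, had 0 counts in all cortex libraries and 32.9, 53.1 and 29.8 CPM in NPC, at least 456-fold higher. En1, its relative, had 2.01, 11.2 and 3.39 CPM in NPC and 1 count over the cortex libraries, and Gbx2, which sets the border of midbrain and hindbrain, had 3.95, 12.3 and 4.97 CPM in NPC. NPC library 2 was the highest for these 3 genes. The Hox genes of the list were all under 1 CPM in every library.

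Most genes of the growth factor response and most p53 targets were higher in culture. Of 16 genes of the FGF and EGF response, 12 were higher in NPC and 0 in cortex (median 2.24). Without genes in runs or with shared sequence 9 of 12 tested were higher in NPC and the median was 1.68. Egfr, the EGF receptor, had 21.8, 24.99 and 23.9 CPM in cortex and 877, 878 and 962 in NPC (5.26 ± 0.10, adjusted p = 3.76e-10). Spry4 (4.44 ± 0.10) and Spry1 (4.18 ± 0.10), feedback inhibitors of receptor kinases, and Dusp6, a phosphatase of ERK (3.26 ± 0.13), were higher. Dusp4 was not, at 47.1, 55.98 and 51.3 CPM in cortex and 44.9, 53.7 and 50.3 in NPC (-0.05 ± 0.10). Of 15 p53 targets, 12 were higher in NPC and 0 in cortex (median 2.68). Eda2r, a death-domain receptor, had 2.24, 3.505 and 1.94 CPM in cortex and 229, 252 and 282 in NPC (6.64 ± 0.20). Sesn2, a stress sensor, had 3.38, 3.14 and 3.85 CPM in cortex and 202, 236 and 265 in NPC (6.08 ± 0.14). The death receptor Tnfrsf10b had 0.572, 1.01 and 1.45 CPM in cortex and 43.7, 52.8 and 59.6 in NPC (5.68 ± 0.27). The apoptosis genes Bax and Bbc3 stayed under 2-fold (0.32 ± 0.10 and 0.41 ± 0.14), as did Plk2 (-0.14 ± 0.09).

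Of 14 genes of the amino acid and stress response, 8 were higher in NPC and 0 in cortex (median 1.23). Without genes in runs or with shared sequence 6 of 12 tested were higher in NPC and the median was 0.85. These values are near those of the reference genes, with 8 of 15 higher in NPC, 0 in cortex and a median of 1.26. Members higher in NPC included the serine synthesis enzymes Phgdh (2.39 ± 0.10) and Psat1 (2.25 ± 0.09) and the serine user Shmt2 (1.597 ± 0.11). Sesn2 is on this list as well as among the p53 targets. The stress factor Ddit3 (-0.53 ± 0.19) and the cystine transporter Slc7a11 (-0.66 ± 0.47) were not called. Of 11 immediate early genes, 9 were higher in NPC and 1 in cortex (median 2.17). Egr1 had 19.2, 9.81 and 12.1 CPM in cortex and 227, 281 and 326 in NPC (4.34 ± 0.25). Fos had 2.75, 1.37 and 1.54 CPM in cortex and 33.1, 32.3 and 44.4 in NPC (4.27 ± 0.26). Arc, also known from synapses, had 1.88, 1.49 and 1.43 CPM in cortex and 18.2, 21.4 and 18.2 in NPC (3.58 ± 0.18). Npas4, the member that neuronal activity induces most selectively, was the reverse at 5.26, 6.89 and 6.305 CPM in cortex and 1.005, 0.918 and 0.514 in NPC (-2.92 ± 0.30).

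Cholesterol and interferon genes were mostly not called, and hypoxia and imprinted genes were divided. Cholesterol synthesis, with 21 genes, had 3 higher in NPC, 2 in cortex and a median of 0.09. Fdps, the farnesyl diphosphate synthase, had 191, 156 and 196 CPM in cortex and 6.21, 3.94 and 2.398 in NPC (-5.44 ± 0.27), with 26.7% of its exon bases shared with another gene. The squalene synthase Fdft1 was lower (-1.34 ± 0.16), and the isomerase Idi1 (1.54 ± 0.20) was higher. Of 17 hypoxia and glycolysis genes, 6 were higher in NPC and 3 in cortex (median 0.54). Adm, a secreted peptide, had 0.681, 1.097 and 0.674 CPM in cortex and 44.6, 53.03 and 50.8 in NPC (5.93 ± 0.19). Ndrg1, a stress-responsive gene also high in myelinating cells, had 140.3, 122 and 144 CPM in cortex and 5.42, 0.765 and 1.16 in NPC (-5.78 ± 0.51), and the glycolysis regulator Pfkfb4 was lower (-2.08 ± 0.15). The glycolytic genes Pgk1 (4.61 ± 0.11) and Eno1 (4.31 ± 0.14) share 53.9% and 26% of their 50-base transcript windows with other genes, so that their differences are uncertain. Of 13 interferon response genes, 3 were higher in NPC and 0 in cortex (median 0.22), all under 5 CPM: Rsad2 (2.01 ± 0.36), Ifit1 (2.01 ± 0.64) and Isg15 (1.39 ± 0.54). NPC library 2 was the highest for all 3, and without it 1 of the list was called. The list median was -0.25 with no count filter, -0.28 with DESeq2 and -0.01 with all 12 libraries. Ifit3 (-0.99 ± 0.50) and Irf7 (-1.08 ± 0.58) were not called. Of 12 imprinted growth genes, 6 were higher in cortex and 3 in NPC (median -1.71). Igf2, a growth factor that meninges and vessels make, had 138, 69.8 and 213 CPM in cortex and 0.323, 0.268 and 0.0343 in NPC (-9.39 ± 0.60), with 64.5% of its exon bases shared with another gene. Without genes in runs higher in NPC or with shared sequence 3 of 8 tested members were higher in cortex and 2 in NPC. The median was then -0.18. The neighbouring non-coding RNAs Rian (-3.91 ± 0.22) and Mirg (-5.46 ± 0.29) of the Dlk1 domain were lower in NPC, in a run of 5 neighbours from Begain to Gm6988 (chromosome 12, 109032187 to 110316364) each at least 4-fold higher in cortex. Dlk1 itself was higher in NPC (4.51 ± 0.67) but under 2 CPM in every library. Mest was higher in NPC (53.8, 67.1 and 51.8 against 961, 599.8 and 579 CPM).

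Splicing regulators were examined because the series concerns Srsf10, a splicing factor of the SR protein class. Of 17 neural splicing regulators, 12 were higher in cortex and 2 in NPC (median -3.08). Rbfox1 had 293, 299.9 and 267 CPM in cortex and 0.754, 0.918 and 0.925 in NPC (-8.37 ± 0.12), and Srrm3 (-6.37 ± 0.22), Srrm4 (-5.90 ± 0.15) and Celf4 (-5.80 ± 0.10) were lower in NPC too. These are neuronal genes. Celf4, Rbfox3, Elavl3 and Elavl4 are on the pan-neuronal list as well, so the lists are not independent. Ptbp1, the repressor that progenitors use to hold back neuronal exons, had 70.5, 62.02 and 62.9 CPM in cortex and 278, 229.6 and 212 in NPC (1.88 ± 0.11, adjusted p = 2.42e-07). Ptbp2, which replaces it in neurons, had 349, 395 and 379 CPM in cortex and 218, 213 and 218 in NPC (-0.79 ± 0.07), under 2-fold. Mbnl2 was higher in NPC (2.002 ± 0.10). Among 13 SR and Tra2 genes, 3 were higher in NPC and 1 in cortex, and 9 were not called (median 0.25). Srsf10 had 194, 217 and 199 CPM in cortex and 249, 228 and 226 in NPC, a difference of 0.20 ± 0.08 (adjusted p = 0.0332) that was under 2-fold. Srsf12, its closest relative, had 35.2, 41.1 and 36.99 CPM in cortex and 5.78, 7.303 and 6.89 in NPC (-2.50 ± 0.13). Srsf9 was higher in NPC (1.52 ± 0.08) and Srsf7 was not called (-0.47 ± 0.10). Srsf1 (6.19 ± 0.15) lies in a run, and Srsf3 (1.86 ± 0.09) has neighbours with a median of 2.49. Without genes in runs or with shared sequence 1 of 7 tested members, Srsf9, was higher in NPC.

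**Figure D5:**
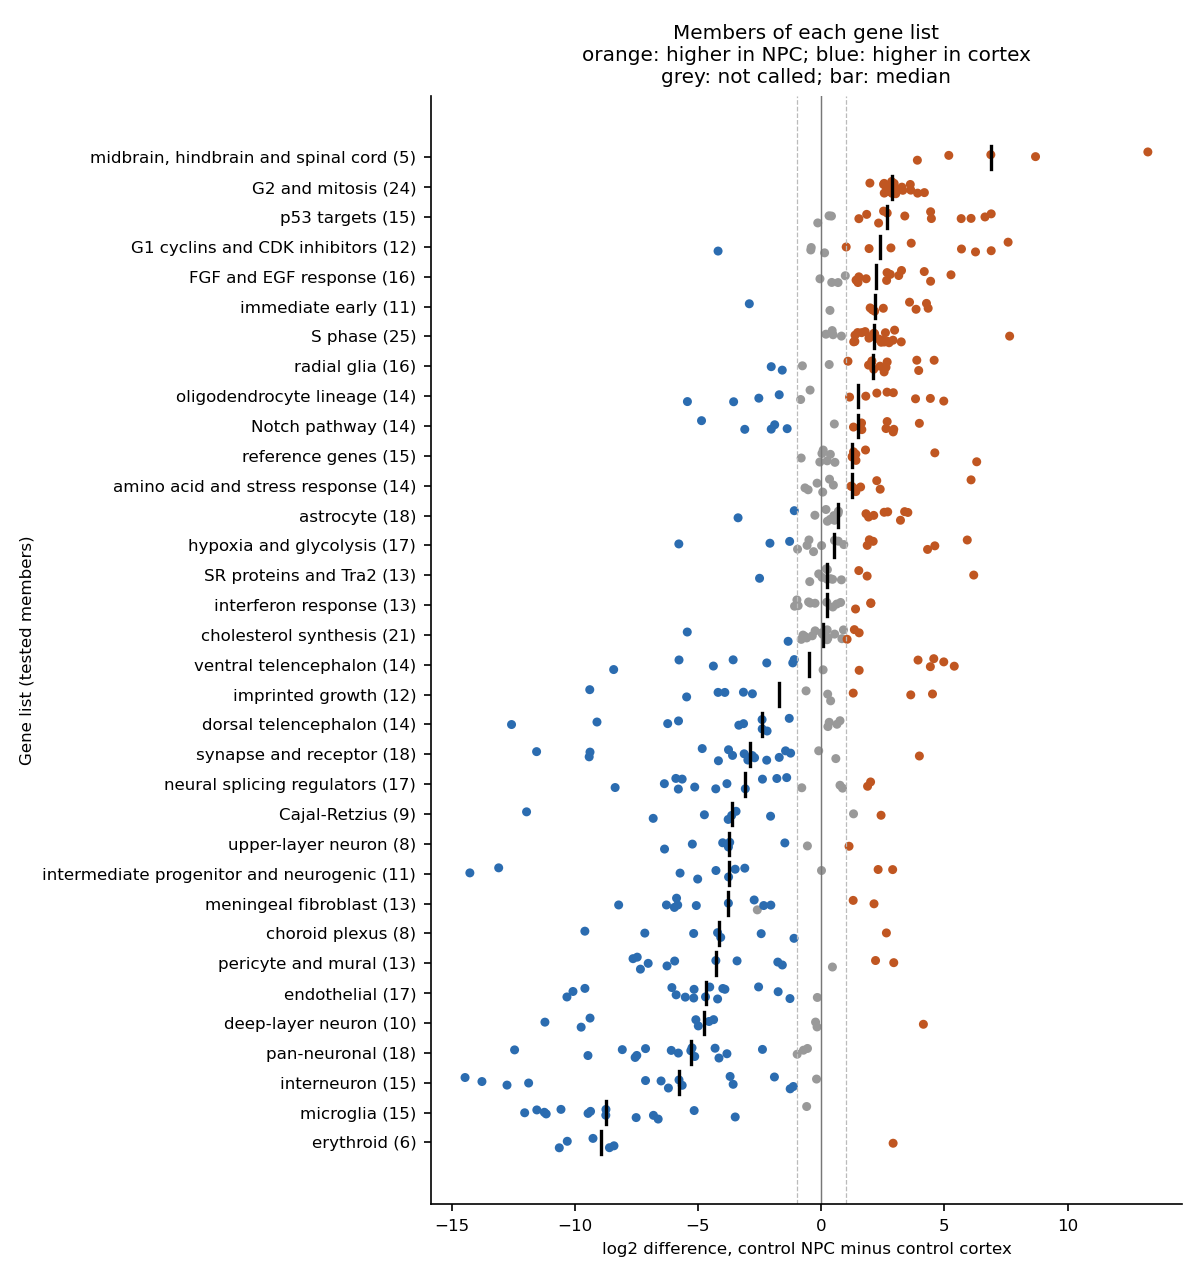
Log2 difference (NPC minus cortex) of each tested member of 34 gene lists, ordered by median (black bar), with dashed lines at 2-fold. The median of all tested genes is -0.03, and mitosis genes (median 2.89) lie to the right of it and pan-neuronal genes (median -5.27) to the left; medians that rest on genes at 0 counts, as for erythroid genes, set no order.

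The naming rule picked 12 genes higher in tissue over all genes by their fitted differences, which set no order among genes at 0 counts in NPC: Lhx6, Jakmip1, Neurod2, Tomm6, Cck, Sst, Neurod6, Pde2a, Stmn2, Sla, St8sia3 and Npy. Cck, a neuropeptide of cortical neurons, had 64.6, 42.5 and 58.6 CPM in cortex and 0 counts in NPC, at least 510-fold lower. Jakmip1, a neuronal RNA-binding and microtubule protein, had 86.9, 80.1 and 76.9 CPM in cortex and 0 counts in NPC. Tomm6, a subunit of the mitochondrial import channel that most cells express, had 75.6, 54.00 and 61.5 CPM and 0 counts, and 84.2% of its exon bases overlap another gene. Jakmip1 and Pde2a share 48.2% and 64.3% of theirs. Outside runs and shared sequence, the 15 largest fitted differences in favour of NPC, a selection made after the values were seen, were led by genes near 0 in cortex. Mia2, an endoplasmic reticulum export factor, had 0, 0 and 0.216 CPM in cortex and 52.2, 55.6 and 58.1 in NPC. Crip2, a LIM protein, had 0.218, 0.244 and 0.269 CPM in cortex and 128, 171 and 189 in NPC, and Mta1, a chromatin remodelling subunit, had 0.463, 0.549 and 0.431 CPM in cortex and 125, 114 and 117 in NPC. Crip2 and Mta1 lie close together on chromosome 12, from 113098278 to 113145506. Shisa3 (8.37 ± 0.23), Vamp3 (8.60 ± 0.17), Ipo8 (7.54 ± 0.17), the protease Adamts14 (7.50 ± 0.25), the cytokine receptor Tnfrsf12a (7.20 ± 0.18) and the splicing factor Snrnp40 (7.07 ± 0.15) were also among them, several of them genes that most cells express. Further members were Cnpy1, known from the midbrain and hindbrain border, at 0.327, 0.518 and 0.296 CPM in cortex and 57.6, 107 and 78.6 in NPC (7.74 ± 0.31). Vav3, a guanine nucleotide exchange factor, had 2.02, 3.11 and 2.88 CPM in cortex and 345, 326 and 376 in NPC (7.03 ± 0.16). Hmga2, a chromatin protein of young stem cells, had 0.273, 0.823 and 0.242 CPM in cortex and 55.9, 45.5 and 61.2 in NPC (6.95 ± 0.33). Both selections of this paragraph required that the libraries of the systems did not overlap, so the absence of overlap is no result. What part counting had in these genes was not tested.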

How the data were processed

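RNA-seq was analysed from the deposited table of raw counts per gene, which the authors made after alignment with HISAT2 to mm10, per the submitters' processing notes; the sources used here name no counting program, annotation or use of strand. Columns were matched to samples by title. The members, gene lists and rules were chosen with earlier results of these data known. The 34 lists held 501 genes, of which 461 were tested.

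The 6 control libraries were fitted alone with edgeR 4.0.16 in R 4.3.3 (TMM, filterByExpr, glmQLFit and glmQLFTest, Benjamini-Hochberg adjustment), which was tested on simulated data. Depth was 26074094 to 36713205 counts a library. A gene at 0 in a group was set at 3 counts per library for a bound, and such bounds cover counting error only. Where tested, such a gene reached the test through the other group, so its direction follows from the filter. Libraries of a group differed by chi-square values of 17.1 to 38.4 per degree of freedom, so none was a copy. Gene positions and 50-base transcript windows came from GENCODE mouse release 21 on GRCm38.

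Genes named were the defining markers; in each list up to 4 called members with the largest differences at 5 CPM or more and up to 2 against the list median; the 12 largest called differences each way at 50 CPM or more without overlap; Srsf10, Xist and Ddx3y. Other named genes were chosen after their values were seen. Some list members are not reported by name here. Alternatives were other normalisations, no count filter, DESeq2 1.42.0, a test against a 2-fold difference and all 12 libraries. Others were a replicate block, sex as a covariate and leaving out each library. Leaving out genes in runs higher in NPC or with shared sequence was added after seeing the data. Figures were drawn with matplotlib 3.10.9 in Python 3.11.15.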

Additional observations from a re-analysis of the deposited data

How the results depend on the processing

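The number of genes called higher in NPC ranged from 2835 with a test against a 2-fold difference to 3829 with no count filter, and the number higher in cortex from 3888 to 5248, against 3436 and 4441. DESeq2 called 3590 and 5043, with 4547 adjusted p-values not given. Without each library in turn the counts were 3387 to 3530 and 4499 to 4740. Without genes in runs higher in NPC or with shared sequence, an alternative chosen after seeing the data, 2516 and 3460 of 12184 genes were called. Runs higher in cortex were not left out, so this alternative treats the directions unevenly.

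The replicate numbers do not pair the systems: deviations of same-numbered libraries from their group means correlated at 0.089, -0.118 and 0.069. With the numbers as a replicate block, 3412 genes were higher in NPC and 4390 in cortex, and Sox10 passed the test (-1.08).

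Of the list counts, 536 of 544 recomputed values lay within 1.5 times the reported count. The midbrain, hindbrain and spinal cord list had 8 members higher in NPC with no count filter. The interferon list had 1 with the test against 2-fold, with sex as a covariate and without NPC control replicate 2. Without genes in runs or with shared sequence, 1 erythroid gene was left in the test, so 0 were higher in cortex and the reversed median of 2.92 is that gene alone. In the same alternative 3 of 8 imprinted genes tested were higher in cortex. For the SR list 1 of 7 tested genes was higher in NPC, and for the reference list 5 of 8 were. Fewer genes of each list were tested than in the main fit, and what part this had in the counts was not tested. Of the list medians, 491 kept their sign and stayed within the replicate spread, and 1, the erythroid one, reversed. Another 52 moved by more than that spread or changed sign where the main median was smaller than the spread. Without genes in runs or with shared sequence the median of the neural splicing list was -3.83, of the pericyte list -5.11 and of the ventral list -1.10. With no count filter the median of the midbrain, hindbrain and spinal cord list was 1.08, and with DESeq2 1.10. The median of the cholesterol list was -0.06 without NPC control replicate 1. Of single genes, Pdgfra no longer passed with the test against 2-fold (-1.71), nor Dcn with DESeq2 (-3.76) or without cortex control replicate 3 (-2.96), and Sox10 passed without NPC control replicate 1 (-1.69). Genes under the 3-count floor in a system have a bound, not a measured fold.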
